A study of Mus musculus with 6 samples.

Results

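The transcripts of 34 genes of cholesterol and fatty acid synthesis were followed from C2C12 myoblasts to myotubes. The genes were listed as members of the pathway driven by the sterol regulatory element binding proteins (SREBPs), with no threshold on a measured value but with earlier results of these data known, and all 34 were found by their symbols among the 54525 gene rows of the count tables. They comprised 5 genes of the SREBPs and their control, 18 enzymes of sterol synthesis, 1 sterol transfer protein, 3 enzymes of fatty acid synthesis, 5 enzymes that lengthen or desaturate fatty acids, and 2 enzymes of glycerolipid synthesis. C2C12 is a mouse myoblast line that proliferates in serum-rich medium and fuses into multinucleated myotubes when serum is lowered. Bulk RNA-seq was performed on 3 wild-type libraries at day 0 of differentiation (D0) and 3 wild-type libraries at day 5 (D5). No treatment was named for them besides the change of medium. According to the study's methods, the myoblasts grew with fetal bovine serum and the myotubes formed with a smaller amount of horse serum, so that differentiation, the kind of serum and the amount of serum cannot be told apart. All libraries came from 1 cell line, and whether the 3 of a group came from separate cultures was not given. The p-values set the difference between D0 and D5 against the spread between these libraries, which may not be that between separate cultures.

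SREBPs are transcription factors made as precursors in the membrane of the endoplasmic reticulum. When membrane cholesterol is low, the escort protein SCAP carries them to the Golgi, where proteases release the part that enters the nucleus, and INSIG proteins hold the complex back when sterols are plentiful. SREBP2 acts mainly on cholesterol synthesis and uptake, and SREBP1 mainly on fatty acid synthesis. Myoblasts need cholesterol and fatty acids for the membranes of dividing and fusing cells.

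The libraries held between 36555048 and 40895840 gene counts at D0 and between 25449759 and 25811300 at D5. Of 16290 genes tested, 13510 (82.9%) passed an adjusted p of 0.05 by edgeR's quasi-likelihood test with Benjamini-Hochberg adjustment, so that passing the test did not by itself set a gene apart. The labels were checked with marker lists. Of 10 proliferation genes, 10 were lower at D5, beside 40.8% of all genes tested. Their summed level was 2337 to 2360 CPM (counts scaled to library size) at D0 and 121 to 133 at D5. Of 9 muscle genes, 7 were higher, beside 42.2% of all genes tested, while *Myod1* and *Myf5* were lower (log2 fold changes -0.71 and -2.32). Of 8 adipocyte markers, *Adipoq*, *Plin1*, *Cidec* and *Lep* had at most 1 count in every library, and the summed level of the list was 18.7 to 20.8 CPM at D0 and 31.1 to 32.7 CPM at D5. Within that list *Cebpa*, a transcription factor gene, rose from 0.390 ± 0.0958 to 24.0 ± 0.221 CPM, while *Pparg*, a nuclear receptor gene of adipocytes, fell from 18.9 ± 0.950 to 7.85 ± 0.777 CPM (SD, n = 3). Of 6 osteoblast markers, *Ibsp* had no counts and *Alpl* at most 2 in any library, the summed level was 109 to 114 CPM at D0 and 41.9 to 43.6 CPM at D5, *Runx2* was lower at D5 (log2 fold change -1.40) and *Dmp1*, with at most 22 counts in a library, was higher (2.86). In bulk RNA, fewer cells of a type and less RNA per cell cannot be told apart. The part of these other markers in the results below was not tested.

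The summed level of the 34 genes was higher in myotubes, while single genes differed. It was 3610, 3655 and 3509 CPM in the 3 D0 libraries and 9827, 9893 and 9801 CPM in the 3 D5 libraries. This was 274% of D0, with no overlap between the groups. *Scd1* and *Scd2* made up much of the difference, with means of 263 and 1154 CPM at D0 and 1650 and 3570 CPM at D5. Under the test 29 genes were higher at D5, against 42.2% of all genes tested, 3 were lower, against 40.8%, and 2 passed in neither direction. The individual libraries gave the same picture, since every D5 library lay above every D0 library for 29 genes (42.2% of all genes) and below for 3 (41.1%). The median log2 fold change of the 34 genes was 1.54, beside 0.0022 for all genes tested, and 22 of the 34 exceeded 1, beside 19.3% of all genes. These directions were relative to the other transcripts of the cell. Scaled to the ERCC spike-ins, which are synthetic RNAs added to each sample, the median log2 fold change of the 34 genes was 1.00 while that of all genes was -0.58. Under that scaling 14 of the 34 were higher and 0 lower by edgeR, beside 1813 and 3747 of all 16290 genes. At an unadjusted p under 0.05 by edgeR, 16 and 2 of the 34 were. *Srebf2*, *Sqle*, *Acaca*, *Elovl6* and *Gpam* changed sign, none of them past the threshold (adjusted p = 0.59 to 0.95 by edgeR). The spike-in share was 0.726% to 0.859% of counts at D0 but 0.72% to 2.09% at D5, and the spike-in-scaled median of the 34 genes was 0.88, 1.68 and 0.02 above the D0 mean on the log2 scale in the 3 D5 libraries.

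**Figure D1:**
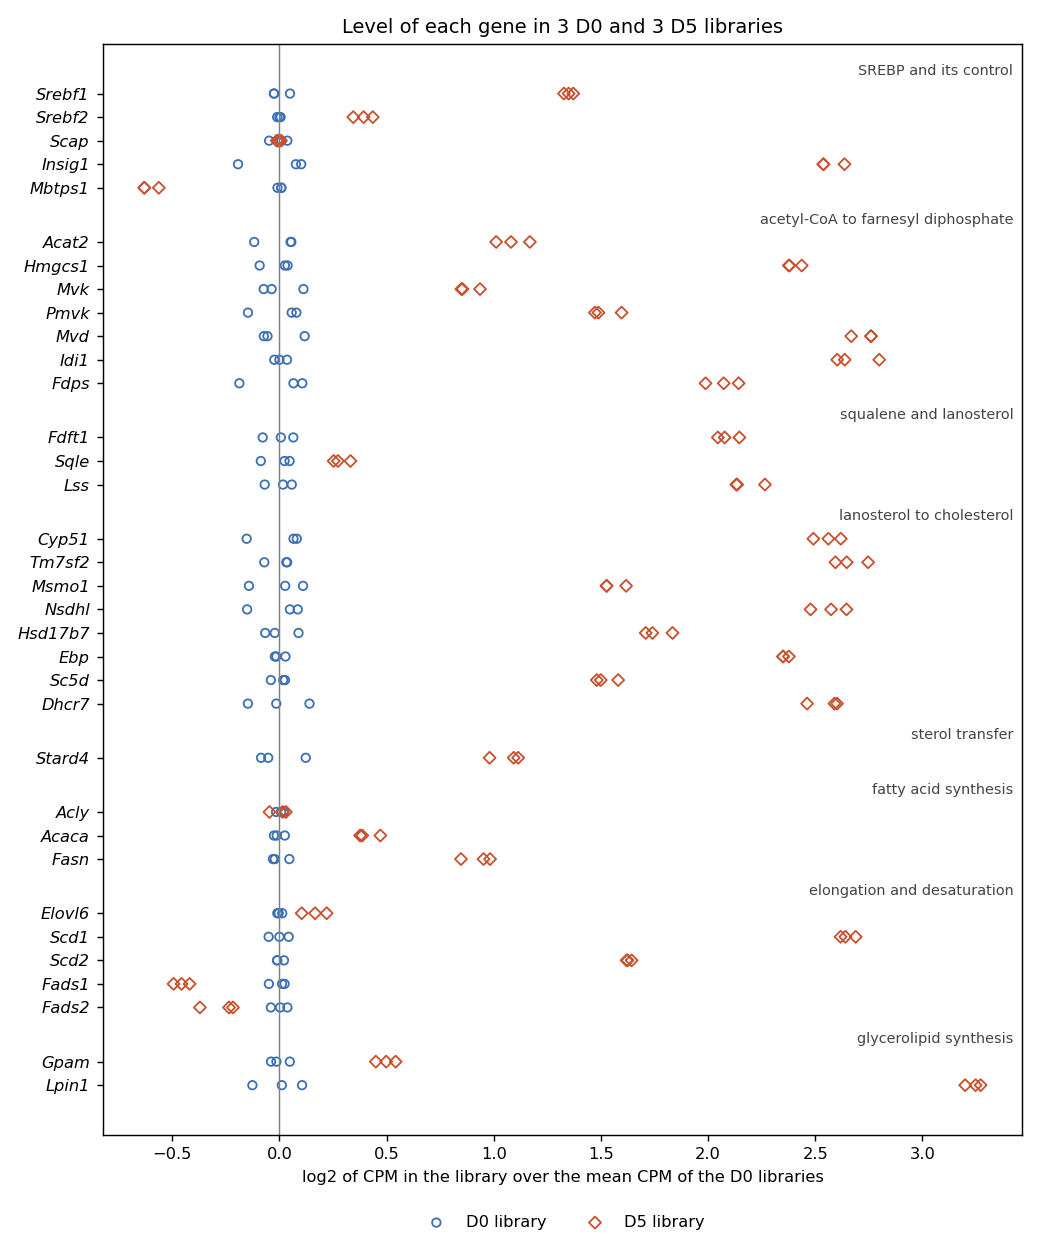
Each row is a gene, grouped by role, and each point is 1 library, placed by the log2 of its CPM over the mean CPM of the 3 D0 libraries (circles D0, diamonds D5). The D5 points lie right of the D0 points for 29 genes, left of them for *Mbtps1*, *Fads1* and *Fads2*, and among them for *Scap* and *Acly*. With ERCC scaling *Srebf2*, *Sqle*, *Acaca*, *Elovl6* and *Gpam* changed sign, none of them past the threshold.

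The SREBP genes themselves rose to different extents. *Srebf1*, which encodes SREBP1, measured 50.9, 50.9 and 53.6 CPM at D0 and 134, 130 and 132 CPM at D5, a 2.55-fold increase (log2 fold change 1.35, SE 0.037) that became 0.78 with ERCC scaling and then missed the threshold (adjusted p = 0.241 by edgeR). *Srebf2*, which encodes SREBP2, measured 279, 278 and 276 CPM at D0 and 353, 365 and 376 CPM at D5, a 1.31-fold increase (log2 fold change 0.39, SE 0.032) that became -0.18 with ERCC scaling. In both genes the lowest D5 library stood above the highest D0 library, and edgeR's quasi-likelihood test gave adjusted p = 1.3e-24 and 2.4e-12. Per transcript length, *Srebf2* remained the more abundant of the pair, at 134 ± 1.40 and 157 ± 3.47 TPM (reads per exonic length, scaled to a fixed total per library) beside 31.8 ± 1.38 and 72.8 ± 2.48 TPM for *Srebf1* (SD, n = 3). The share of *Srebf1* in the TPM of the pair was 18.9% to 19.9% at D0 and 31.0% to 32.6% at D5. Counts per gene do not separate the SREBP1a and SREBP1c transcripts, which start at different promoters of *Srebf1* (GRCm38 chr11:60199089-60222581, minus strand).

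Of the 3 control genes, 1 rose steeply, 1 fell and 1 did not pass the test. *Insig1*, whose protein retains the SCAP complex in the endoplasmic reticulum and whose gene is itself an SREBP target, measured 46.3, 47.1 and 38.4 CPM at D0 and 255, 273 and 255 CPM at D5, a 5.94-fold increase (log2 fold change 2.57, SE 0.049, adjusted p = 1.4e-28 by edgeR). D0 replicate 3 was the lowest of the D0 libraries, and the groups stayed far apart. *Mbtps1*, which encodes the protease that makes the first cleavage of the precursors, fell to 65.3% of D0, from 162, 162 and 160 CPM to 109, 104 and 104 CPM (log2 fold change -0.62, SE 0.034, adjusted p = 1.3e-16 by edgeR). With ERCC scaling the value was -1.18 and missed the threshold (adjusted p = 0.0639 by edgeR). *Scap* measured 59.4, 58.3 and 56.0 CPM at D0 and 57.8, 57.4 and 58.2 CPM at D5. These ranges overlapped, with a log2 fold change of -0.0021 (95% interval -0.084 to 0.079, adjusted p = 0.962 by edgeR), but *Scap* also shares 13.2% of its exonic length with a gene on the opposite strand.

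All 18 enzymes of sterol synthesis measured here were higher at D5, beside 42.2% of all genes tested. Their median log2 fold change was 2.14, and 16 of them exceeded 1, beside 19.3% of all genes. With ERCC scaling the median was 1.59, 17 of 18 were positive and *Sqle* was negative. Under that scaling 11 passed the test as higher, beside 1813 of all 16290 genes. The 7 that did not pass with ERCC scaling were *Acat2*, *Mvk*, *Pmvk*, *Sqle*, *Msmo1*, *Hsd17b7* and *Sc5d*. Summed over the 18, the level was 637, 641 and 580 CPM at D0 and 2333, 2433 and 2320 CPM at D5, which was 382% of D0. D0 replicate 3 was the lowest D0 library for 15 of the 18. The 8 enzymes that turn lanosterol into cholesterol had the highest median of the stages (2.46), followed by the 3 that make squalene and lanosterol (2.09) and the 7 that lead from acetyl-CoA to farnesyl diphosphate (2.07); these stage medians were not tested against each other.

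In the first stage, *Hmgcs1*, which encodes the cytosolic synthase that joins acetyl-CoA to acetoacetyl-CoA, measured 115, 116 and 106 CPM at D0 and 587, 612 and 588 CPM at D5, a 5.29-fold increase (log2 fold change 2.40, SE 0.037, adjusted p = 5.8e-31 by edgeR). *Mvd*, the decarboxylase that yields isopentenyl diphosphate, rose 6.65-fold, from 10.6, 9.40 and 9.29 CPM to 62.1, 66.2 and 66.2 CPM (log2 fold change 2.73, SE 0.055). *Idi1*, which isomerises that product, rose 6.39-fold, from 12.1, 12.4 and 11.9 CPM to 84.2, 73.5 and 75.3 CPM. The kinases between them rose less: *Mvk*, mevalonate kinase, measured 15.3 to 17.4 CPM at D0 and 29.1 to 30.8 CPM at D5 (log2 fold change 0.87, SE 0.057), and *Pmvk*, phosphomevalonate kinase, 11.2 to 13.1 and 34.4 to 37.5 CPM (1.52, SE 0.060). *Acat2*, the cytosolic acetoacetyl-CoA thiolase that opens the pathway, rose by 1.09 on the log2 scale, and *Fdps*, farnesyl diphosphate synthase, by 2.07. Of the exonic sequence of *Acat2*, 39.1% of 50-base words also occurred in other annotated genes, and for *Fdps* and *Idi1* the share was 26.2% and 25.3%, so that their counts are less certain than those of *Mvd*.

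In the middle stage, *Fdft1*, squalene synthase, measured 43.8, 45.6 and 41.3 CPM at D0 and 184, 193 and 180 CPM at D5 (log2 fold change 2.09, SE 0.040), and *Lss*, lanosterol synthase, measured 16.4 to 17.9 CPM at D0 and 75.4 to 82.7 CPM at D5 (2.18, SE 0.049). *Sqle*, the squalene epoxidase that works between them and is known as a rate-limiting enzyme of the pathway, differed from both. It measured 122, 124 and 113 CPM at D0 and 143, 151 and 145 CPM at D5, a 1.22-fold increase (log2 fold change 0.29, 95% interval 0.22 to 0.37, adjusted p = 2.5e-08 by edgeR) that became -0.26 with ERCC scaling. The next smallest change among the 18 enzymes was that of *Mvk*, whose interval of 0.76 to 0.99 did not meet that of *Sqle*. *Sqle* supplied 14.2% to 14.4% of the TPM of the 18 enzymes at D0 and 4.44% to 4.49% at D5. At D0 its 74.6 ± 3.14 TPM was second among them only to *Hmgcs1* at 84.7 ± 3.64 TPM, and at D5 6 enzymes besides *Hmgcs1* stood above its 81.9 ± 1.36 TPM (SD, n = 3).

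In the last stage every gene exceeded a log2 fold change of 1.5, and the range was 1.52 to 2.66. With ERCC scaling all 8 kept a positive sign and 5 of them stayed past the threshold, beside 1813 of all 16290 genes called higher. *Cyp51*, lanosterol demethylase, measured 56.2, 56.8 and 48.3 CPM at D0 and 317, 330 and 302 CPM at D5, a 5.89-fold increase (log2 fold change 2.56, SE 0.046). *Nsdhl*, a dehydrogenase of the C4 demethylation complex, measured 27.1, 27.8 and 23.6 CPM at D0 and 146, 164 and 156 CPM at D5 (2.57, SE 0.049). *Dhcr7*, which reduces 7-dehydrocholesterol to cholesterol, measured 21.6, 19.4 and 17.7 CPM at D0 and 108, 118 and 119 CPM at D5 (2.56, SE 0.053). These 3 genes had their lowest D0 value in replicate 3 and none overlapped between the groups. *Tm7sf2*, a sterol C14 reductase, had the largest fold of the stage (2.66, SE 0.079) at one of the lowest levels of all 34 genes, 2.80 ± 0.156 TPM at D0 and 15.9 ± 0.593 TPM at D5. *Ebp*, the sterol isomerase, rose 5.13-fold. *Msmo1*, *Hsd17b7* and *Sc5d*, which oxidise C4 methyl groups, reduce a C3 ketone and desaturate the C5 position, rose 2.95-, 3.39- and 2.87-fold. *Stard4*, which carries cholesterol between membranes, rose from 21.7, 24.5 and 21.2 CPM to 48.0, 48.7 and 44.4 CPM (log2 fold change 1.06, SE 0.054), a gain that became 0.52 and did not pass the test with ERCC scaling (adjusted p = 0.452 by edgeR).

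**Figure D2:**
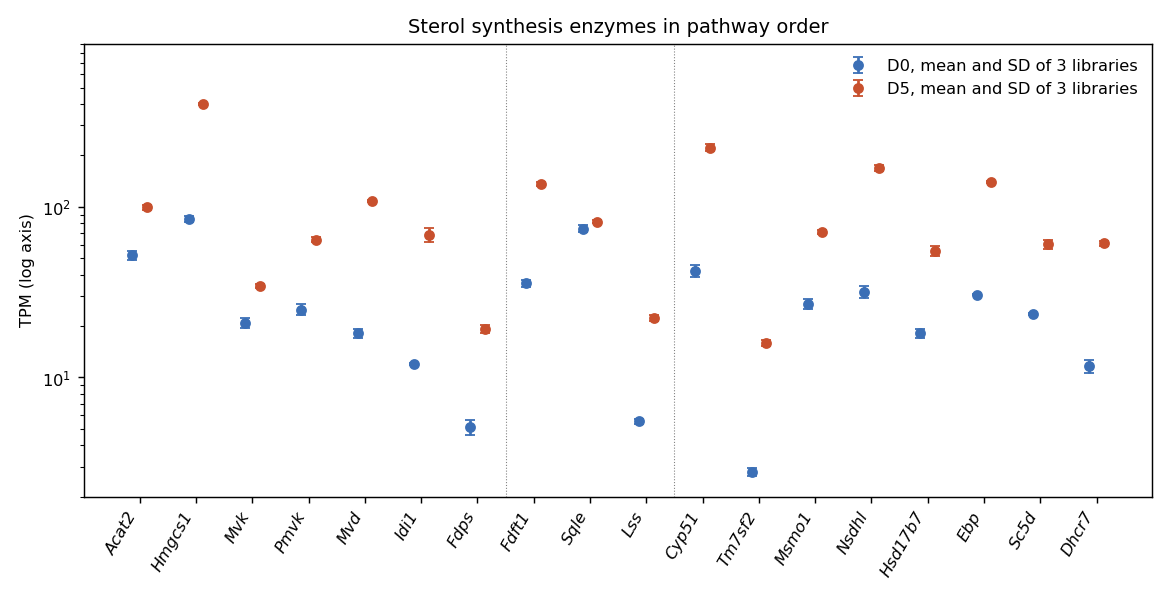
The 18 enzymes of sterol synthesis are placed in pathway order, with dotted lines between the stages, and their level in TPM is on a log axis (points are the mean and bars the SD of 3 libraries). The D5 point lies above the D0 point for every enzyme. For *Sqle* the gap is the smallest, 74.6 against 81.9 TPM, and its sign turned with ERCC scaling without passing the test (adjusted p = 0.726 by edgeR).

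Enzymes of fatty acid and glycerolipid synthesis did not move as a block. Of the 10, 7 were higher (42.2% of all genes tested), 2 were lower (40.8%) and 1 passed in neither direction, and the median log2 fold change was 0.46. With ERCC scaling *Acaca*, *Elovl6* and *Gpam* turned negative without passing the test. Of the 10 only *Scd1* and *Lpin1* then passed, both higher, beside 1813 of all 16290 genes higher and 3747 lower. The sum of the 10 was nevertheless 2354, 2393 and 2324 CPM at D0 and 6538, 6482 and 6512 CPM at D5, a difference made up mostly of *Scd1* and *Scd2*.

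*Acly*, which makes cytosolic acetyl-CoA from citrate, measured 190, 192 and 187 CPM at D0 and 183, 191 and 193 CPM at D5. The groups overlapped, and the log2 fold change was -0.0054 (95% interval -0.073 to 0.062, adjusted p = 0.884 by edgeR). *Acaca*, the acetyl-CoA carboxylase that makes malonyl-CoA, measured 113, 116 and 112 CPM at D0 and 148, 149 and 158 CPM at D5 (log2 fold change 0.41, SE 0.035, and -0.16 with ERCC scaling). *Fasn*, fatty acid synthase, rose 1.91-fold from 331, 349 and 333 CPM to 608, 668 and 654 CPM (log2 fold change 0.93, SE 0.035, adjusted p = 1.0e-20 by edgeR), and with ERCC scaling the change was 0.38 and missed the threshold (adjusted p = 0.594 by edgeR). The order of the log2 fold changes along this short pathway was therefore *Fasn* above *Acaca* above *Acly*. Their 95% intervals (0.86 to 1.00, 0.34 to 0.49 and -0.073 to 0.062) did not meet. For *Acaca*, 30.4% of 50-base words also occurred in other annotated genes, so that its counts are less certain.

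*Scd1* and *Scd2*, which introduce the first double bond into saturated fatty acids, were the most abundant of the 34 genes per transcript length at both stages. *Scd1* measured 271, 263 and 254 CPM at D0 and 1696, 1615 and 1640 CPM at D5, a 6.28-fold increase (log2 fold change 2.65, SE 0.035, adjusted p = 1.4e-32 by edgeR). *Scd2* measured 1145, 1171 and 1146 CPM at D0 and 3605, 3547 and 3558 CPM at D5, a 3.09-fold increase (log2 fold change 1.63, SE 0.033) that became 1.06 with ERCC scaling and then missed the threshold (adjusted p = 0.0937 by edgeR). The share of *Scd1* in the TPM of both desaturases was 19.9% to 20.9% at D0 and 33.7% to 34.4% at D5, and both together supplied 41.1% ± 0.572 of the TPM of the 34 genes at D0 and 51.3% ± 0.913 at D5 (SD, n = 3). The genes lie near each other on chromosome 19 (*Scd1* chr19:44394455-44407879 on the minus strand, *Scd2* chr19:44293674-44306864 on the plus strand, GRCm38), and 4.56% and 3.97% of their 50-base words occurred in other genes.

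The desaturases of polyunsaturated fatty acids went the other way. *Fads1*, the delta-5 desaturase, fell to 73.1% of D0, from 121, 120 and 115 CPM to 84.5, 86.7 and 89.0 CPM (log2 fold change -0.45, SE 0.036, adjusted p = 1.1e-12 by edgeR). *Fads2*, the delta-6 desaturase, fell to 82.8% of D0, from 94.1, 91.9 and 89.2 CPM to 70.9, 77.9 and 78.9 CPM (-0.27, SE 0.040, adjusted p = 3.8e-07 by edgeR). In both genes the groups did not overlap; with ERCC scaling they stayed negative, at -1.02 and -0.84, without passing the test. *Elovl6*, which lengthens palmitate to stearate, changed least of the genes that passed, from 43.9, 44.6 and 44.1 CPM to 49.6, 51.5 and 47.5 CPM (log2 fold change 0.16, SE 0.043, adjusted p = 9.7e-04 by edgeR), and scaling to total counts left 0.079 with adjusted p = 0.0927.

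The phosphatidate phosphatase gene *Lpin1*, whose product makes diacylglycerol and also acts as a transcriptional coregulator, had the largest fold of the 34. It measured 4.11, 3.85 and 3.50 CPM at D0 and 35.1, 36.3 and 36.9 CPM at D5, a 9.45-fold increase (log2 fold change 3.24, SE 0.069, adjusted p = 2.2e-27 by edgeR). It was also the least abundant of the 34 per transcript length at both stages, at 1.37 ± 0.0892 and 11.6 ± 0.156 TPM (SD, n = 3). *Gpam*, the mitochondrial acyltransferase that starts glycerolipid synthesis, measured 40.6, 42.4 and 39.9 CPM at D0 and 57.9, 59.7 and 56.0 CPM at D5 (log2 fold change 0.50, SE 0.043, and -0.051 with ERCC scaling).

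**Figure D3:**
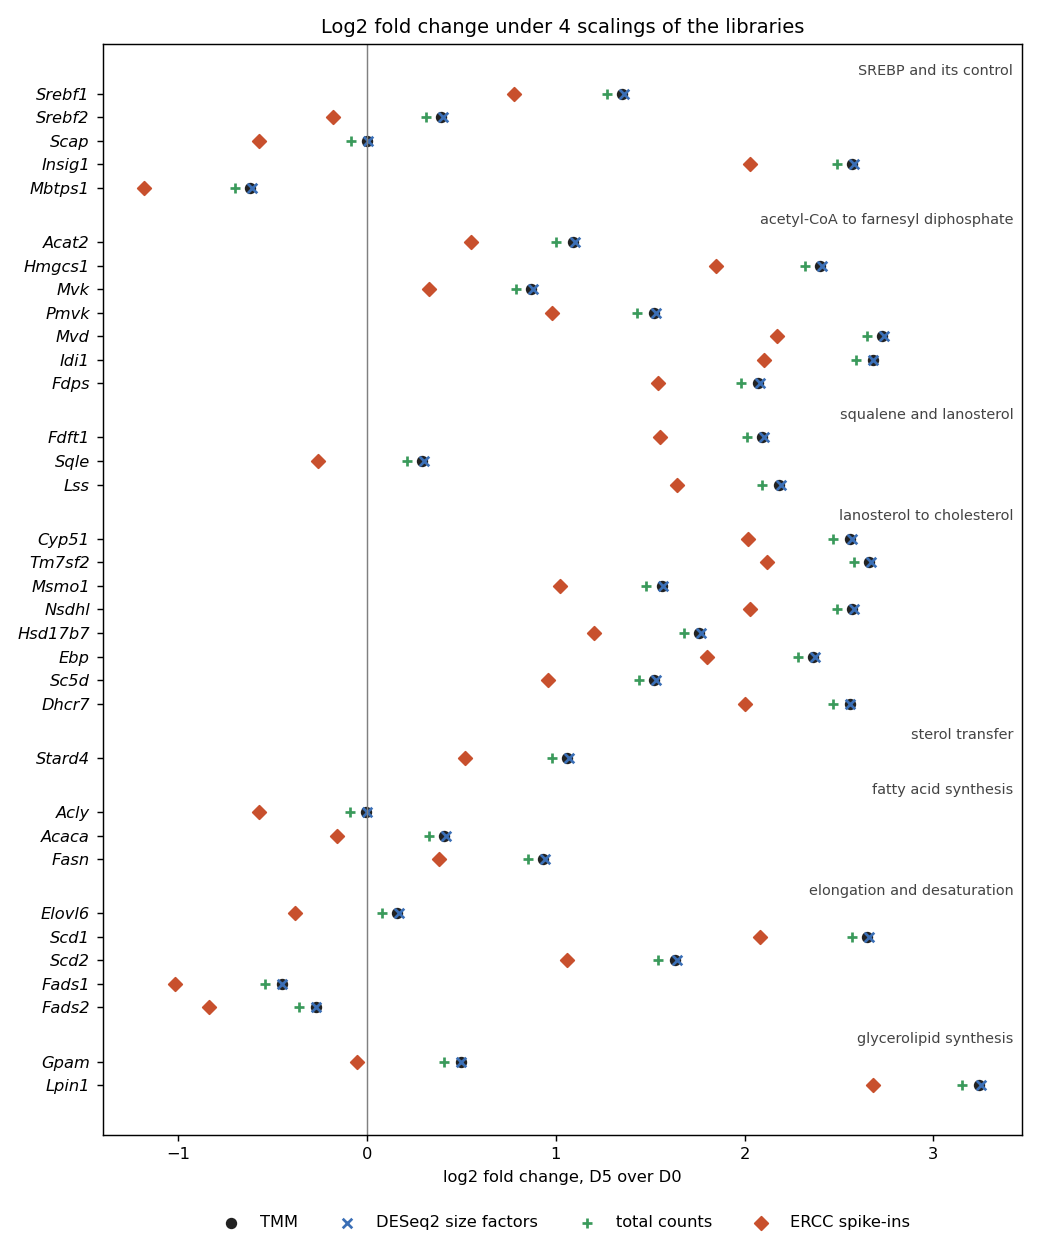
For each gene, grouped by role, the log2 fold change of D5 over D0 is shown under 4 scalings of the libraries (TMM, DESeq2 size factors, total counts and ERCC spike-ins). The ERCC points lie left of the others for every gene, and those of *Srebf2*, *Sqle*, *Acaca*, *Elovl6* and *Gpam* lie left of 0 where the TMM points lie right of it.

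SREBPs bind sterol regulatory elements and act together with NF-Y, which binds CCAAT boxes, and Sp1, which binds GC boxes. The promoter windows of RefSeq (250 bases before to 50 bases after each transcription start, GRCm38.p6) were therefore searched on both strands for CCAAT, for GGGCGG, for the sterol element TCACNCCAC and for its shorter core CACNCCAC, which lies within the former and was added because the longer form matched a single gene. Windows were used for 27 of the 34 genes, all but *Fdps*, *Fdft1*, *Sqle*, *Stard4*, *Scd1*, *Scd2* and *Fads1*. A CCAAT box was found in 20 of the 27 (74.1%), beside 41.1% of all 27025 genes with a window, and among the sterol enzymes in 14 of 15 (93.3%), of which 9 (60%) held at least 2, beside 13.3% of all genes. Among the fatty acid and glycerolipid enzymes 3 of 7 (42.9%) held a CCAAT box. The GC box was found in 22 of 27 (81.5%), beside 38.2%, the core in 4 of 27 (*Insig1*, *Acat2*, *Hmgcs1* and *Gpam*), beside 7.12%, and the longer form only in *Hmgcs1*, beside 1.44%. The 27025 genes were taken whether or not they were expressed in these cells, while the 34 listed genes all had enough counts for a test. A background of expressed genes was not searched, so the part of expression in these differences was not tested. A match is a run of letters and not a shown binding site, and no binding was measured here.

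The stretches below hold the member promoters with at least 3 CCAAT boxes before the start. They were chosen by that number alone, and include *Fasn*, an enzyme of fatty acid synthesis, beside sterol enzymes. Capitals mark CCAAT or its reverse complement ATTGG and, in *Hmgcs1*, the sterol element TCACCCCAC; in *Fasn* the run CCAATTGG is a pair of overlapping matches on opposite strands. Each reads 5′ to 3′ along the gene's strand, as in RefSeq: *Hmgcs1* chr13:119690101-119690325 (plus), *Mvk* chr5:114444081-114444268 (plus), *Msmo1* chr8:64733614-64733753 (minus), *Hsd17b7* chr1:169969206-169969385 (minus) and *Fasn* chr11:120824587-120824652 (minus).
Hmgcs1: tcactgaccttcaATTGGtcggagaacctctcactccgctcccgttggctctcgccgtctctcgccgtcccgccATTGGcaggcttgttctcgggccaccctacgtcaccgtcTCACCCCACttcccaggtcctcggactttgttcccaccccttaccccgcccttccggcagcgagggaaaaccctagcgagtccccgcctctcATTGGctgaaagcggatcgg
Mvk: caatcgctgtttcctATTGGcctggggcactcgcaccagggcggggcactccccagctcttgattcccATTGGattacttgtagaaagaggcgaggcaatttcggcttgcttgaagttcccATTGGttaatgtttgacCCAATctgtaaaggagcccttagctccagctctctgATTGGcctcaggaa
Msmo1: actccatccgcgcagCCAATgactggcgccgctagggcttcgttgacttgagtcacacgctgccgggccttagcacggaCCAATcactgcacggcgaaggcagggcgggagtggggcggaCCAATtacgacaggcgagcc
Hsd17b7: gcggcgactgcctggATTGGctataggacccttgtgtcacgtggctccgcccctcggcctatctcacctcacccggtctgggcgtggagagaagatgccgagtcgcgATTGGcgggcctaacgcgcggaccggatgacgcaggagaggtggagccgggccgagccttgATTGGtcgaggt
Fasn: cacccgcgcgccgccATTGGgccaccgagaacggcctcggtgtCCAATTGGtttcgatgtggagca

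The folds of these 5 genes ran from 0.87 for *Mvk* and 0.93 for *Fasn* through 1.56 for *Msmo1* and 1.76 for *Hsd17b7* to 2.40 for *Hmgcs1* on the log2 scale. *Mvk*, with 5 CCAAT boxes in the printed stretch, rose least of them. Whether the number of CCAAT boxes bears on the fold was not tested.

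**Figure D4:**
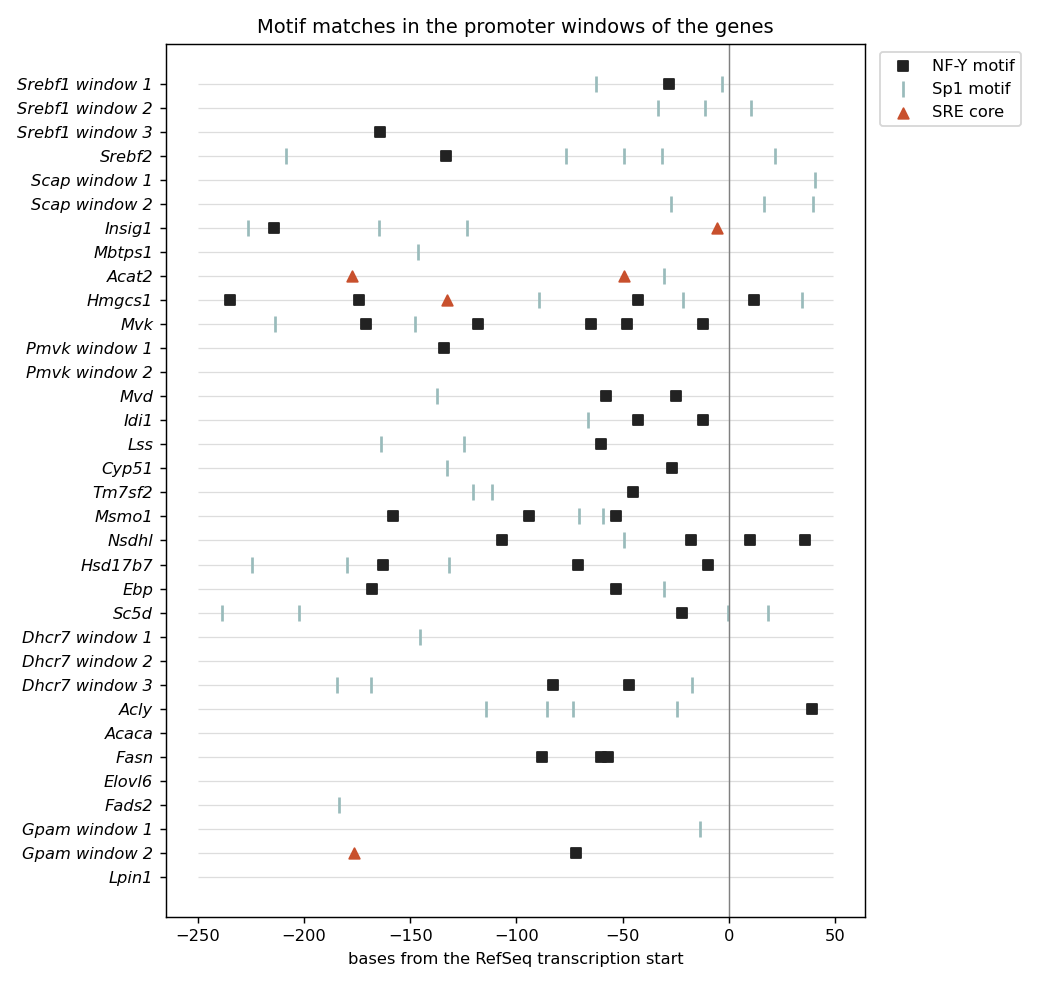
Each line is a promoter window of one of the 27 genes, drawn in bases from the RefSeq transcription start at 0, with squares for the CCAAT box (NF-Y), bars for the GC box (Sp1) and triangles for the sterol element core. The sterol enzymes in the middle rows carry squares in 14 of 15 genes, and triangles stand in the windows of 4 genes.

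Genes of the same pathways outside the 34 were examined in 3 lists. Of 16 other genes of sterol synthesis, uptake and SREBP control, 6 were higher (42.2% of all genes tested) and 9 lower (40.8%), with a median log2 fold change of -0.29. The prenyl synthase gene *Ggps1* did not pass (log2 fold change -0.081, adjusted p = 0.0949 by edgeR).

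The lower genes of that list included regulators. *Nfya*, which encodes a subunit of NF-Y, fell from 62.3, 65.2 and 62.6 CPM to 29.6, 30.0 and 31.9 CPM (log2 fold change -1.06, SE 0.045, adjusted p = 1.6e-19 by edgeR). Its partners *Nfyb* and *Nfyc* and the gene of Sp1, chosen after their values were seen, had log2 fold changes of -0.63, -0.45 and -0.42. All 4 stayed negative with ERCC scaling, where *Nfya* alone passed the test, beside 3747 of all 16290 genes called lower. With TMM scaling the CCAAT-bearing sterol enzymes rose in the libraries in which the mRNAs of the NF-Y subunits fell. Any link between these changes was not tested, and NF-Y protein and binding were not measured. *Insig2*, also chosen after its values were seen, went opposite to its relative *Insig1*, from 156, 162 and 151 CPM to 110, 108 and 107 CPM (-0.52, SE 0.035, and -1.09 with ERCC scaling, where it missed the threshold), and the share of *Insig1* in the TPM of both was 22.2% to 25.0% at D0 and 72.2% to 73.9% at D5.

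Of 26 other genes of fatty acid and glycerolipid synthesis, 23 had enough counts for a test; 12 were higher (42.2% of all genes tested), 10 lower (40.8%) and *Dgat1*, a diacylglycerol acyltransferase, passed in neither direction (log2 fold change -0.066, adjusted p = 0.211 by edgeR), with a median of 0.13. The lipogenic regulators *Thrsp* and *Mlxipl* had at most 1 count in every library. *Acacb*, the carboxylase of the mitochondrial surface whose malonyl-CoA restrains fatty acid oxidation, had 9, 5 and 5 counts at D0 and 162, 141 and 185 counts at D5 (log2 fold change 5.33, SE 0.220), a much larger fold than *Acaca*. *Acss2*, which makes cytosolic acetyl-CoA from acetate, rose from 4.95 ± 0.379 to 39.5 ± 2.07 CPM (SD, n = 3; log2 fold change 3.00) where *Acly* had not moved past the test, and its share in the TPM of both was 1.27% to 1.44% at D0 and 9.09% to 10.3% at D5. The acyl-CoA synthetase genes *Acsl3* and *Acsl1* rose by 2.37 and 2.12 on the log2 scale, *Acsl3* from 121 ± 5.42 to 625 ± 12.3 CPM. *Lpin2* and *Lpin3*, the relatives of *Lpin1* and chosen after their values were seen, were lower, with log2 fold changes of -0.81 and -1.55, and the share of *Lpin1* in the TPM of the 3 was 1.03% to 1.22% at D0 and 21.3% to 21.9% at D5.

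Liver X receptors (LXRs) sense oxysterols and turn on genes of sterol efflux, and they also act on *Srebf1*. Of 14 genes of LXRs, efflux and trafficking, 13 were tested; 10 were higher (42.2% of all genes tested), 1 was lower (40.8%), and *Npc1* and *Soat1*, of lysosomal cholesterol export and cholesterol esterification, passed in neither direction (log2 fold changes -0.0047 and -0.070, adjusted p = 0.910 and 0.0754 by edgeR). *Abca1*, the exporter that loads cholesterol onto apolipoprotein A-I, had 4, 4 and 9 counts at D0 and 1076, 885 and 927 counts at D5 (log2 fold change 8.05, SE 0.140). *Abcg1*, the exporter to HDL, had 1, 3 and 3 counts at D0 and 237, 225 and 242 counts at D5, at least 125-fold higher. *Nr1h3*, which encodes LXR alpha, was at least 14.2-fold higher, with 1, 3 and 3 counts and 27, 23 and 30 counts. *Ch25h*, which makes 25-hydroxycholesterol, had 0, 4 and 3 counts at D0 and 70, 81 and 53 counts at D5. *Mylip*, an LXR target that encodes a ubiquitin ligase, was chosen after its values were seen and rose from 6.52 ± 0.185 to 32.3 ± 1.54 CPM (SD, n = 3). Also chosen after its values were seen, *Stard5* was the lower gene (log2 fold change -1.93, and -2.50 with ERCC scaling). The LXR gene *Nr1h2*, chosen likewise, stood at 42.9 and 46.2 TPM, beside 0.0794 and 1.32 TPM for *Nr1h3*. It changed by 0.26 on the log2 scale, and by -0.30 with ERCC scaling. The sterol enzymes described above and the efflux genes *Abca1* and *Abcg1* were thus higher in the same libraries. With ERCC scaling *Mylip*, *Abca1* and *Abcg1* kept a positive sign.

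**Figure D5:**
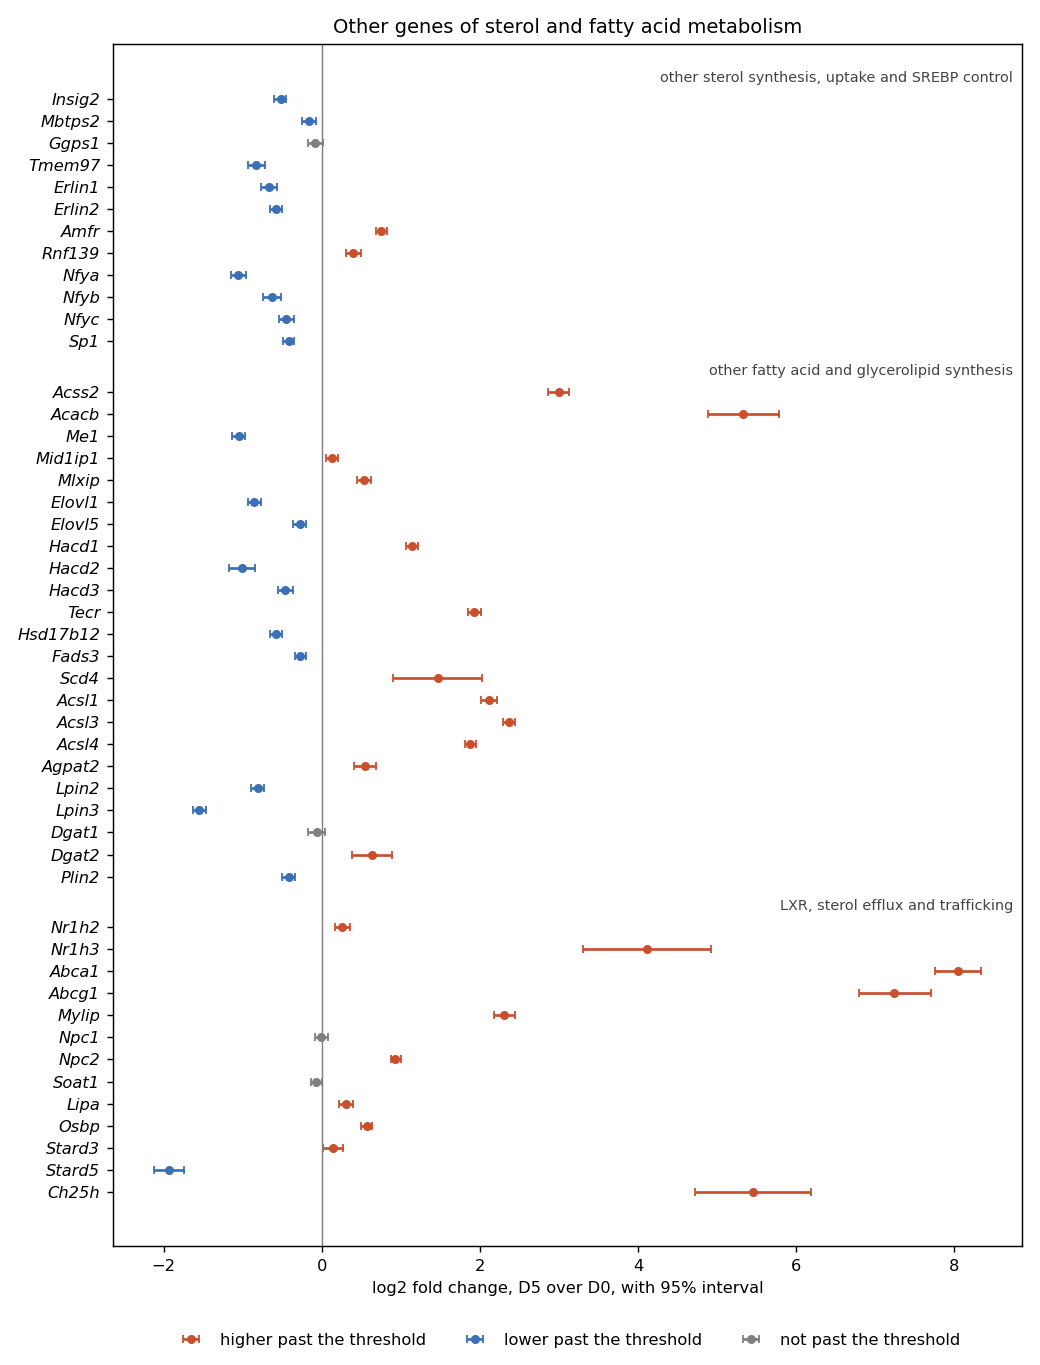
Points are the log2 fold change of D5 over D0 and bars the 95% interval for most tested genes of the 3 further lists, coloured by the direction past the threshold or grey where not past it. *Abca1* lies furthest right at 8.05; the positions of *Abcg1*, *Nr1h3* and *Ch25h*, with almost no D0 counts, depend on the prior count, and *Rnf139*, *Mid1ip1*, *Mlxip*, *Agpat2*, *Nr1h2*, *Lipa* and *Stard3* changed sign with ERCC scaling.

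Several of the 34 genes share sequence with other annotated genes, where reads could have been counted elsewhere. The account was then restricted to the 26 genes with at most 5% of their exonic sequence shared or overlapped. This left 22 higher (42.2% of all genes tested), 3 lower (40.8%) and 1 neither. All 12 sterol enzymes among them were higher, with a median log2 fold change of 1.97. *Fdft1* overlaps *Ctsb* on the opposite strand over 18.3% of its exonic length, and whether the counting used strand was not given. *Hmgcs1* overlaps another gene on the opposite strand over 12.1% of its exonic length, and *Tm7sf2* overlaps *Vps51* on the same strand over 12.1%.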

How the data were processed

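Total RNA of wild-type C2C12 cells was sequenced at D0 (n = 3) and D5 (n = 3). The authors deposited raw counts per gene, made with featureCounts on GRCm38, with 92 ERCC spike-in rows, which were kept out of the gene totals. The study's methods name HISAT2 as aligner, while the submitters' processing notes name Tophat2; annotation release, strand setting and treatment of multiply mapped reads are not given in the sources used here. An unnamed total row was left out.

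Counts were tested with edgeR 4.0.16 (R 4.3.3; TMM scaling, filterByExpr, quasi-likelihood test, D5 against D0, Benjamini-Hochberg over 16290 genes, threshold 0.05). CPM used TMM library sizes. TPM used exonic lengths of GENCODE M21, which matched 99.9% of the 54525 rows. Intervals are 95% intervals of the fit, and bounds beside groups of 3 or fewer counts per library used a floor of 3 counts. An exact permutation test of 3 against 3 could not go below 0.1 and was not used. Libraries of a group differed by more than sampling noise (chi-square per degree of freedom 2.28 to 3.71) and were counted separately. Promoter windows came from RefSeq (GRCm38.p6).

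The 34 genes and the further lists were chosen with earlier results of these data known. From each further list the text names up to 4 genes with the largest change past the threshold, those that did not pass and those at 3 counts or fewer; genes beyond that are marked. Some genes of these lists enter the counts and medians but are not reported here by name. Alternatives were DESeq2 1.42.0, upper-quartile, total-count and ERCC scaling, 2 other count filters, a replicate block and leaving out each library. Replicate numbers were not used as pairs in the main fit. Deviations of same-numbered libraries correlated at 0.0329, 0.0645 and 0.0277, which were small but higher than those of differently numbered libraries.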

Additional observations from a re-analysis of the deposited data

How the results depend on the processing

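With DESeq2, upper-quartile scaling, either other count filter or any library left out, 29 of the 34 genes were higher and 3 lower, and the median log2 fold change lay between 1.48 and 1.57. Scaling to total counts gave 28 higher and 5 lower (*Scap* -0.087 and *Acly* -0.090 now called lower, *Elovl6* 0.079 no longer called). ERCC scaling, in which the D5 libraries lay far apart, gave 14 higher, 0 lower and a median of 1.00, with log2 fold changes of -0.18 for *Srebf2*, -0.26 for *Sqle*, -0.16 for *Acaca*, -0.38 for *Elovl6* and -0.051 for *Gpam*; the cause was not tested. Over all genes it gave 1813 higher and 3747 lower (67.4% lower, beside 49.2% with TMM). With DESeq2 *Scap* was 0.005 and *Acly* 0.0017, and with a library left out *Scap* ranged from -0.038 to 0.0078 and *Acly* from -0.029 to 0.021; neither passed the threshold in these. The replicate block gave 29 higher and 3 lower with a median of 1.54 and changed no call; every library correlated best with its own number, by at most 0.0645. Calls over all genes were 6869 higher and 6641 lower, 7637 and 7637 without a filter, and 5742 and 5752 with at least 10 counts in every library. The least counted value among the 34 genes was 127 counts in a library, so that depth limited *Acacb*, *Abca1*, *Abcg1*, *Nr1h3* and *Ch25h* at D0 rather than the 34.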
